A study of Mus musculus with 10 samples.

Results

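Thbs1, the gene of the secreted matrix glycoprotein thrombospondin-1, and 8 genes of the TGF-beta pathway were examined in Hepa1-6 cells, a mouse hepatoma line, with and without activated CD8+ T cells. The 9 genes were taken from the table of 34745 genes by symbol: Thbs1, the ligand genes Tgfb1, Tgfb2 and Tgfb3, the receptor genes Tgfbr1 and Tgfbr2, the signal transducer gene Smad3, and the feedback genes Smad7 and Skil. Every one matched 1 row, and 9 of 9 passed the filter on low counts that left 12666 genes to test. The genes were selected on the CPM difference between these same groups, that of Thbs1 in particular, together with their known part in TGF-beta signalling, so the values of the 9 genes are given as a description, with no test. Genes of the pathway outside the set were tested, though their lists were also drawn up with earlier results of these data known.

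There were 10 libraries, 5 per group, all of wild-type Hepa1-6 cells grown in DMEM with 10% fetal bovine serum. Untreated cells received no T cells. The other group, co-cultured for 48 h, was exposed to CD8+ T cells from spleens of male C57/BL6 mice aged 6 to 8 weeks, which had been activated for 5 days with antibodies to CD3 and CD28 diluted 1 in 2000. Floating cells were rinsed off with PBS before lysis. The labels do not say whether the 5 libraries of a group came from separate cultures, and p-values speak only of library-to-library spread, which may be technical. Totals were 12922263 to 17100662 counts per library.

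The label of the line was set beside its markers. Of 8 hepatocyte-type markers, 4 stayed under 1 CPM (counts scaled to library size, with TMM) with and without T cells. Alb, serum albumin, had 0 counts in untreated cells, which allows up to 0.0388 CPM over the group, and 4 counts after co-culture. Hnf4a, a liver transcription factor, had 0 and 1 counts, and Ttr and Apoa1 were below 0.1 CPM. The fetal liver gene Afp was at 20.0 CPM in untreated cells, and the epithelial keratin genes Krt8 and Krt18 at 1116 and 497 CPM. After co-culture Afp fell to 15.5 ± 0.863 CPM and Krt8 to 938 ± 63.1 CPM (edgeR adjusted p = 0.00400 and 0.00790). The list summed to 1478 to 1784 CPM in untreated and 1344 to 1601 CPM in co-culture libraries. The cells carried keratin and Afp transcripts, with Alb, Hnf4a, Ttr and Apoa1 at or near 0. Apoa2, the remaining marker, was not among the 4 under 1 CPM. The T cell markers Cd3e and Cd8a had 0 counts in all 10 libraries.

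TGF-beta is a cytokine that cells secrete in a latent form, wrapped in its own propeptide and tied to the matrix by LTBP proteins. Once freed, by integrins, proteases or thrombospondin-1, it binds the receptor kinases TGFBR2 and TGFBR1, which phosphorylate SMAD2 and SMAD3. These join SMAD4 in the nucleus and switch on target genes, among them SMAD7 and SKIL, whose products damp the signal. In liver the pathway restrains hepatocyte growth and drives matrix production, and in tumours it dampens cytotoxic T cells.

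Promoter windows are shown for the ligand and receptor genes, since the pairs Tgfb1 and Tgfb2, and Tgfbr2 and Tgfbr1, differed widely in level within these cells. RefSeq windows (GRCm38.p6), 250 bases before to 50 bases after the start site, were found for 5 of the 9 genes: Tgfb1, Tgfb2, Tgfbr1, Tgfbr2 and Smad3. Thbs1, Tgfb3, Smad7 and Skil were not matched. On both strands, 4 motifs were searched: the Smad box CAGAC, the AP-1 motif TGANTCA, the GC box GGGCGG and the TATA motif TATAAA. Capitals mark every match, which reads as its reverse complement (CCGCCC for the GC box) when on the other strand.
Tgfb1 (chr7:25686752-25687051, plus strand): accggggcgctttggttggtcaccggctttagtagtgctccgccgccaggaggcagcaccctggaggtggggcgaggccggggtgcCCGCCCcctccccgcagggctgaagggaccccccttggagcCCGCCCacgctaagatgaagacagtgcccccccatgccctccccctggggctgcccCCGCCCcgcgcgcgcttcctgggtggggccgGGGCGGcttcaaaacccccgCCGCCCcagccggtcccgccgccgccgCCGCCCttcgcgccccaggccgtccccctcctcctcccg
Tgfb2 (chr1:186705940-186706239, minus strand): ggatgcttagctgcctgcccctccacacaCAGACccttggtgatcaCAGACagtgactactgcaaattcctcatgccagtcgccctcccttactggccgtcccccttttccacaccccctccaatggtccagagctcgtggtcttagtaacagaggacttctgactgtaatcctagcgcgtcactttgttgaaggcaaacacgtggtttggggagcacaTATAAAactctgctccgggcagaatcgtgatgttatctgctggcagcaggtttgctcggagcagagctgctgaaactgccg
Tgfbr1 (chr4:47352972-47353271, plus strand): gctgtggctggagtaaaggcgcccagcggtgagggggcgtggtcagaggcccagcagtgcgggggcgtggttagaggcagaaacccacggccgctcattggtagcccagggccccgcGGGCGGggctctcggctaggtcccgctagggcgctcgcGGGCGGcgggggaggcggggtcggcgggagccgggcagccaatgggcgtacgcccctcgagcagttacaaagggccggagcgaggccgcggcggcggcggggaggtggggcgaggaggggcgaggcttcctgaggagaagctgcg
Tgfbr2 (chr9:116175314-116175613, minus strand): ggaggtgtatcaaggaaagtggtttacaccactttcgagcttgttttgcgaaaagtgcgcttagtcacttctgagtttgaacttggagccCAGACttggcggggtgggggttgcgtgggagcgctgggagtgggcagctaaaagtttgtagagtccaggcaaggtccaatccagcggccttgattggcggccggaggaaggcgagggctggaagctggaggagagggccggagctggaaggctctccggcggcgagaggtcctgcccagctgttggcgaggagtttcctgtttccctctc

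The windows of the ligand genes differed in kind. That of Tgfb1 was 77.0% G and C and held 6 GC boxes and no TATA motif. That of Tgfb2 was 54.3% G and C and held no GC box, 2 Smad boxes and 1 TATA motif, which began 31 bases before the start site. The Tgfbr1 window held 2 GC boxes and no Smad box, whereas the Tgfbr2 window held 1 Smad box and no GC box. Smad3, not printed, had 2 GC boxes. No matches of different motifs overlapped, and none of the 5 windows had the AP-1 motif. Among 32851 RefSeq windows of the same length, 49.6% held the Smad box, 7.81% the AP-1 motif, 35.7% the GC box and 13.6% the TATA motif. A match is a description of these letters and not evidence of a bound factor.

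Thbs1 was higher in every co-culture library than in every untreated library. Thbs1 (chromosome 2, 118111876 to 118127133 in mm10, plus strand) was at 23.7, 27.7, 20.0, 22.4 and 20.6 CPM in untreated replicates 1 to 5, and at 78.6, 70.2, 72.3, 78.6 and 76.8 CPM in co-culture replicates 1 to 5. The lowest co-culture library lay 42.5 CPM above the highest untreated one. The means were 22.9 ± 3.07 and 75.3 ± 3.82 CPM (SD, n = 5), a log2 fold change of 1.72 ± 0.0843 (SE of the edgeR fit) or 3.29-fold. Of the 12666 genes tested, 70, Thbs1 included, had a log2 fold change at least as large as that of Thbs1. Thbs1 was chosen on this difference, so its rank is a description. In bulk RNA, more cells of a type and more transcript per cell cannot be told apart. Macrophage or monocyte markers were higher in the same libraries (summed CPM 94.4 to 111, against 58.4 to 65.3 in untreated libraries), and their part in the Thbs1 difference was not tested.

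**Figure D1:**
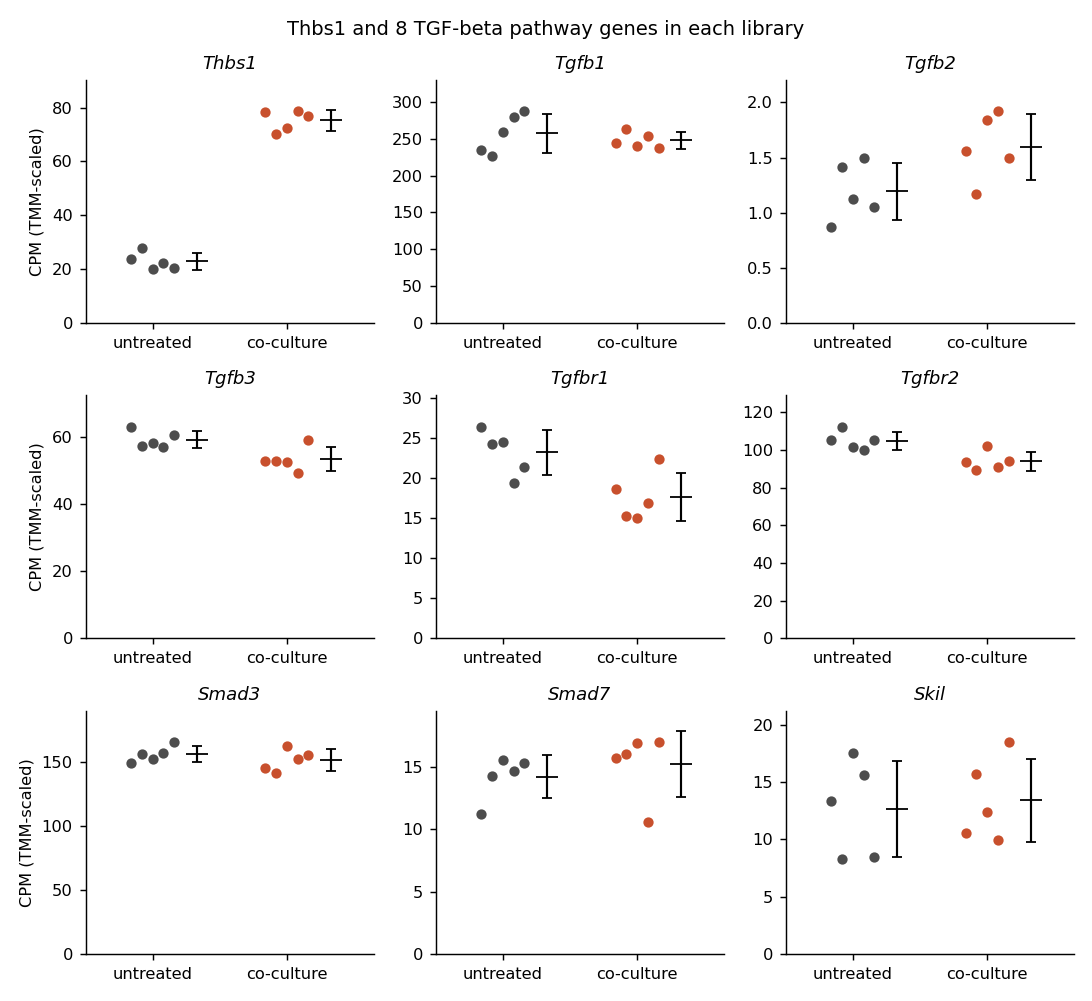
TMM-scaled CPM (vertical axes, starting at 0) of Thbs1 and 8 TGF-beta pathway genes in 5 untreated and 5 co-culture libraries; points are libraries in the order of their replicate numbers and bars are mean ± SD. Thbs1 separates the groups, at 20.0 to 27.7 against 70.2 to 78.6 CPM, while the groups overlap for the other 8 genes.

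Of the 9 genes, 1 (Thbs1) had co-culture and untreated libraries that did not overlap, against 23.8% of all tested genes. In the edgeR fit across all genes, 3 of the 9 were past an adjusted p of 0.05, Thbs1 higher and Tgfbr1 and Tgfbr2 lower, against 33.5% of all tested genes. As the genes were picked with this contrast known, nothing is read from these counts. The other 8 genes had log2 fold changes from -0.39 to 0.41. Counts in the alternatives likewise only describe genes picked on this contrast. In 2 of them, limma on log2(FPKM + 1) and log2(FPKM + 0.1), 1 of the 9 (Thbs1) was past the threshold. Tgfbr2 was not past it without untreated replicate 2 or co-culture replicate 4, and Tgfb3 was past it without co-culture replicate 5, so 2 or 4 of the 9 were then past it.

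Among the thrombospondins, levels were compared per gene length, in FPKM (fragments scaled to transcript length and library size). Thbs2, a matrix relative of Thbs1, led with 46.3 FPKM (untreated) and 44.2 FPKM (co-culture). Thbs1 went from 3.48 ± 0.487 to 11.7 ± 0.732 FPKM and Thbs3 from 6.97 to 9.88 FPKM. The ratio of Thbs1 to Thbs2 was 0.0648 to 0.0921 in untreated libraries and 0.250 to 0.281 in co-culture libraries. As a share of the FPKM of 5 thrombospondin genes, Thbs1 made up 6.12% ± 0.791 and 17.8% ± 0.744 (n = 5), and the family total was 56.8 ± 2.04 and 65.8 ± 2.60 FPKM. Thbs1 thus lay below Thbs3 in untreated cells and above it after co-culture in mean FPKM. Thbs4 and Comp, the remaining family genes, had 1 count each over all libraries.

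Outside the set, Thbs3 rose from 62.7 ± 1.90 to 87.0 ± 4.62 CPM, a log2 difference of 0.47 ± 0.0488 (SE; edgeR adjusted p = 1.03e-05). Thbs2 did not pass, at -0.10 (edgeR adjusted p = 0.0835). Of 13 tested genes among thrombospondin relatives and binding partners, 5 rose and 3 fell, with a median of 0.07 against 0.01 over all tested genes. Cd47, the surface receptor that binds thrombospondin-1 and signals to phagocytes, fell from 254 ± 14.9 to 184 ± 5.31 CPM, with no overlap between groups (-0.46, edgeR adjusted p = 8.85e-06). Cd36, the scavenger receptor that binds the type 1 repeats of thrombospondin-1, rose from 5 to 143 summed counts, or 0.0611 ± 0.0871 to 1.90 ± 0.264 CPM (edgeR adjusted p = 5.07e-06). Sdc1 (0.28), a heparan sulfate proteoglycan, and Lrp1 (0.23), an uptake receptor for thrombospondin-1, rose as well. Itgb3, an integrin subunit that pairs with Itgav, fell by 0.30 on the log2 scale, and Adamts1, a protease that cuts thrombospondins, fell by 0.29. Itgb1, the subunit shared by many matrix integrins, was close to 0 and rose from 7 to 68 summed counts (log2 fold change 3.20, edgeR adjusted p = 4.87e-05). Its partner gene Itga3 averaged 448 and 459 CPM (0.03, edgeR adjusted p = 0.686). The annotation used for counting is not given in the sources used here, so whether these counts hold all Itgb1 transcripts is not known, and the Itgb1 change is that of the counted reads alone. Itgav was at 0.20, and Sdc4 (-0.03) and Calr (0.07) did not pass either.

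The 5 genes whose profile over the 10 libraries lay closest to that of Thbs1 were Gm15389, Cpt1a, Hk3, Mycl and Rassf4. Likeness was the Euclidean distance between log2 CPM profiles, each centred on its own mean, over 12146 genes with at least 1 CPM on average, and the distances were 0.607 to 0.883 against a median of 2.78. Cpt1a, the mitochondrial gatekeeper of fatty acid oxidation, went from 108 ± 8.29 to 272 ± 12.7 CPM. The others were scarce, all below 6 CPM in both groups: Mycl, a Myc relative, at 0.702 and 3.27 CPM, Hk3, a hexokinase of myeloid cells, at 0.634 and 1.77 CPM, Rassf4 at 1.88 and 5.19 CPM, and the predicted gene Gm15389 at 0.397 and 1.71 CPM. The choice by likeness fixes that these genes are higher after co-culture, and Gm15389, Hk3 and Mycl reached the 1 CPM average only through the co-culture libraries.

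The ligand genes differed little between the groups, and Tgfb1 had the highest level per length in both. Tgfb1 (chromosome 7, 25687002 to 25705077) was at 235, 226, 259, 279 and 287 CPM in untreated replicates 1 to 5 and at 244, 264, 240, 254 and 237 CPM after co-culture. Every co-culture library lay inside the untreated range, and the log2 fold change was -0.06 ± 0.0660 (SE). Tgfb3 (chromosome 12, 86056744 to 86079041) was at 63.0, 57.2, 58.3, 57.0 and 60.5 CPM, and at 52.9, 53.0, 52.4, 49.3 and 59.2 CPM after co-culture. For Tgfb3, 4 of 5 co-culture libraries were below all untreated ones, with replicate 5 the exception (-0.15 ± 0.0581 SE). Ttll5 overlaps Tgfb3 on the opposite strand and reached 36.6 CPM, and strand use in counting is not given in the sources used here. Tgfb2 (chromosome 1, 186622792 to 186705989) rested on 14 to 28 counts per library. It was at 0.872, 1.41, 1.13, 1.5 and 1.05 CPM untreated and at 1.56, 1.17, 1.84, 1.92 and 1.49 CPM after co-culture, with means of 1.19 ± 0.259 CPM (untreated) and 1.60 ± 0.300 CPM (co-culture), and its groups overlapped (0.41 ± 0.211 SE).

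Per length, Tgfb1 made up 71.8% ± 2.36 of the untreated ligand FPKM and 73.1% ± 1.90 of that after co-culture (n = 5). Tgfb3 made up 28.0% ± 2.37 and 26.6% ± 1.91, and Tgfb2 0.210% and 0.297%. The summed ligand level was 61.9 ± 4.09 and 59.9 ± 1.13 FPKM, a difference smaller than the SD among untreated libraries. The ratio of Tgfb1 to Tgfb3 ranged from 2.21 to 2.91 in untreated and from 2.37 to 3.05 in co-culture libraries, so the ranges overlapped.

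**Figure D2:**
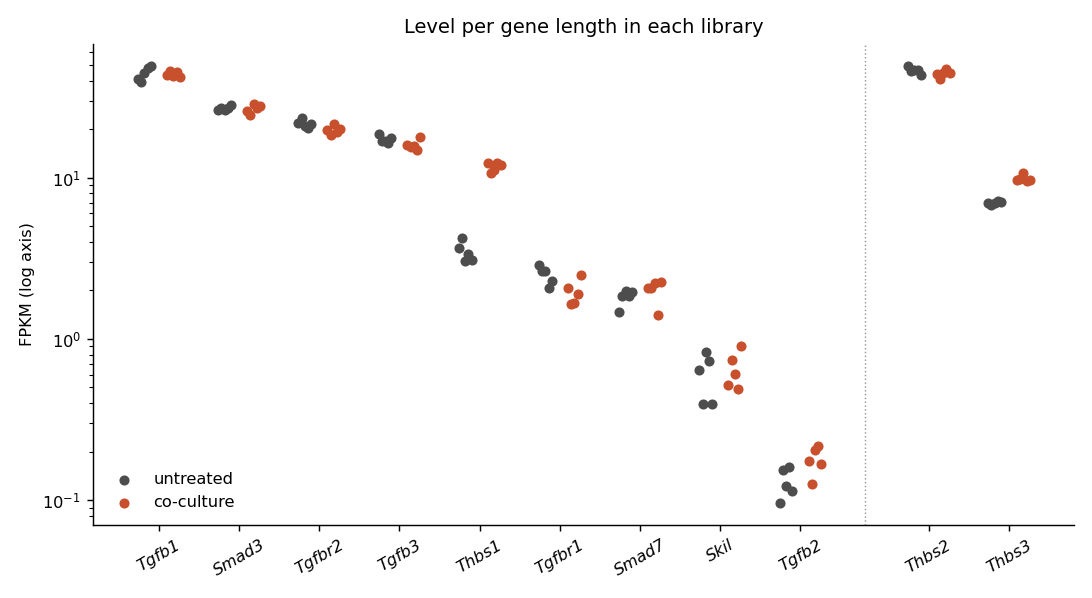
Level per gene length (FPKM, log axis) in each library, with the 9 genes ordered by their untreated mean to the left of the dotted line and Thbs2 and Thbs3 to its right; each point is 1 library. Tgfb1 at 39.4 to 49.4 and Thbs2 lead, Tgfb2 at 0.0960 to 0.215 is lowest, and Thbs1 moves from 3.03 to 4.23 up to 10.7 to 12.3 FPKM.

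Both receptor genes were lower on average after co-culture, by small amounts. Tgfbr1 (chromosome 4, 47353222 to 47414931), the kinase that phosphorylates Smads, was at 26.4, 24.3, 24.5, 19.3 and 21.4 CPM in untreated replicates 1 to 5 and at 18.7, 15.3, 15.0, 16.9 and 22.3 CPM after co-culture. Co-culture replicate 5 lay within the untreated range and the other 4 below it, and the log2 fold change was -0.39 ± 0.117 (SE). Tgfbr2 (chromosome 9, 116087698 to 116175363), which binds the ligand first, was at 105, 112, 101, 99.9 and 105 CPM and at 93.3, 89.3, 102, 90.6 and 94.0 CPM. Here co-culture replicate 3 was the one inside the untreated range (-0.16 ± 0.05 SE). Tgfbr2 was the more abundant, by 7.60 to 9.87 times in untreated and 8.04 to 13.0 times in co-culture libraries in FPKM. The receptor total was 24.1 ± 1.33 and 21.8 ± 1.21 FPKM.

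Smad3, which carries the signal to DNA, averaged 156 ± 5.99 CPM without and 152 ± 8.35 CPM with T cells (-0.04 ± 0.0481 SE). The range was 150 to 166 CPM in untreated libraries and 142 to 163 CPM after co-culture, with the median libraries at 156 and 152 CPM. Per length it was the leading Smad gene, with 41.2% ± 2.1 of the untreated FPKM of 8 Smad genes and 39.0% ± 1.5 of that after co-culture, ahead of Smad4 at 22.4% and 24.9%. Of the 6 other Smad genes, all tested, 1 rose and none fell in the edgeR fit. At an unadjusted p under 0.05, 1 (Smad2) was lower, which DESeq2 called after adjustment and both limma fits did not. Smad9, a BMP-responsive Smad, rose from 3.83 ± 0.504 to 5.52 ± 0.902 CPM (0.53, edgeR adjusted p = 0.0115). Smad2, the partner of Smad3, was at -0.18 (edgeR adjusted p = 0.0558), Smad4 at 0.18 (0.0983 adjusted) and the inhibitory Smad6 at 0.24 (0.0587 adjusted). Counts in this list went from 1 to 2 under several other settings.

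The feedback genes did not separate the groups. Smad7 (chromosome 18), the inhibitory Smad induced by the pathway, was at 11.3, 14.3, 15.6, 14.7 and 15.4 CPM in untreated replicates 1 to 5 and at 15.7, 16.1, 16.9, 10.6 and 17.0 CPM after co-culture. Untreated replicate 1 and co-culture replicate 4 stood low, while the other 4 co-culture libraries lay above every untreated one (0.10 ± 0.128 SE). Skil (chromosome 3, 31095058 to 31122577), a repressor of Smad-driven transcription, was at 13.4, 8.26, 17.6, 15.6 and 8.43 CPM and at 10.5, 15.7, 12.4, 9.93 and 18.5 CPM. Skil varied the most between replicates, with a coefficient of variation of 33.2% in untreated cells, against 3.83% for Smad3, the steadiest. Its log2 fold change was 0.08 ± 0.225 (SE), with -0.07 without co-culture replicate 5 and -0.04 without untreated replicate 2 or 5.

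In order of FPKM, untreated cells ranked Tgfb1, Smad3, Tgfbr2, Tgfb3, Thbs1, Tgfbr1, Smad7, Skil and Tgfb2, and no pair of neighbours overlapped in range. After co-culture the order was the same except that Smad7, at 2.00 ± 0.343 FPKM, and Tgfbr1, at 1.95 ± 0.348 FPKM, traded places, and these ranges overlapped. Thbs1 kept its place between Tgfb3 and the less abundant genes, now at 10.7 to 12.3 FPKM, below the 14.9 to 17.8 FPKM of Tgfb3.

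Beyond the set, 98 of 117 genes in 7 pathway lists could be tested, of which 25 rose and 15 fell, with a median log2 fold change of 0.03 against 0.01 over all tested genes. Over all tested genes, 17.4% were called higher and 16.1% lower, or 33.5% in either direction. By list, the share called was 62.5% for latent TGF-beta genes, 61.5% for thrombospondin relatives and partners and 51.7% for target genes. It was 28.6% for activin and BMP genes, 25.0% for Smad repressors, 20.0% for co-receptors and 16.7% for other Smads. Some genes, such as Itgb1, Ltbp2, Ski and Bambi, stand in another list as well, so these shares are not independent. The 98 count each gene once. Only 5 of the 98 rose at least 2-fold and none fell as much: Cd36, Itgb1, Ltbp2, Col1a2 and Lox. Of these 5, 4 began below 1 CPM in untreated cells, Ltbp2 being the exception.

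**Figure D3:**
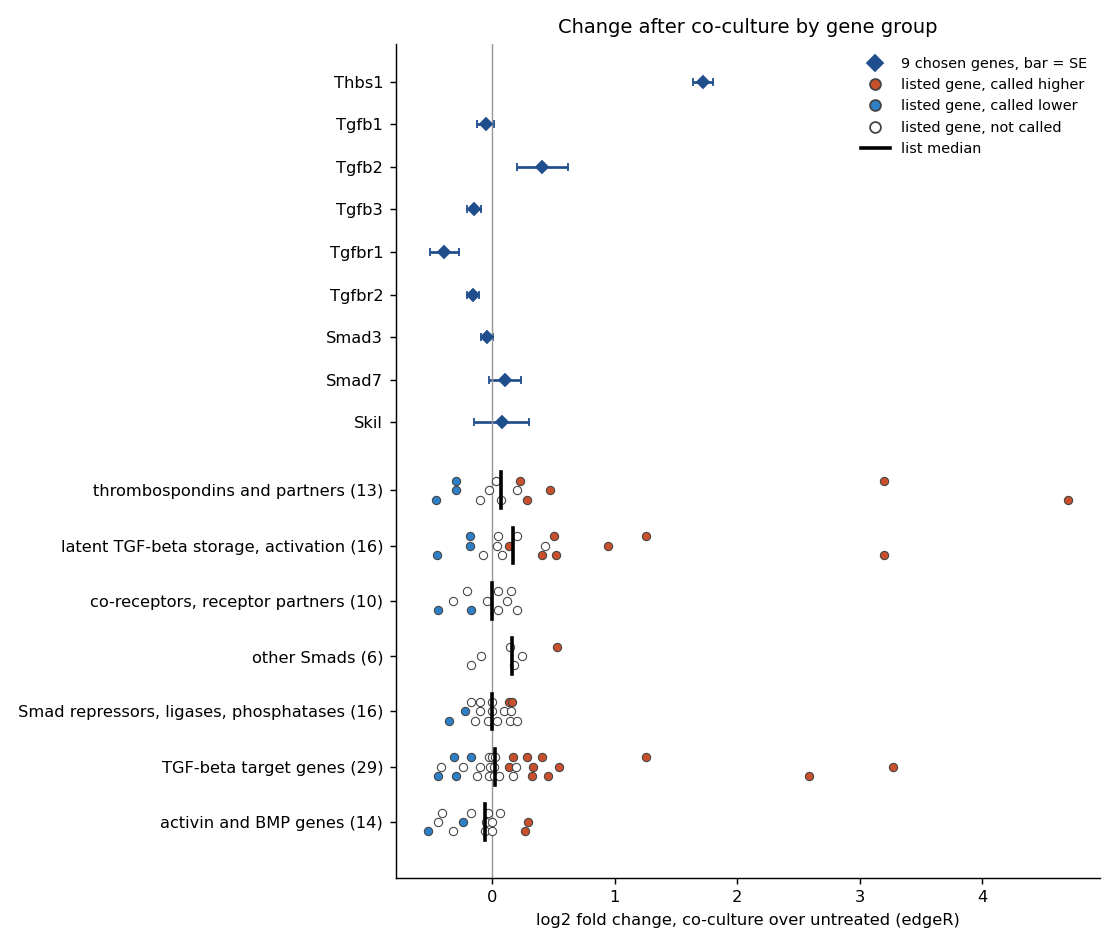
Log2 fold change of co-culture over untreated (edgeR, horizontal axis) for the 9 chosen genes (diamonds with SE) and for every tested gene of 7 pathway lists (circles, red for called higher, blue for called lower, white for not called; numbers tested in parentheses; black bars are list medians). Thbs1 stands at 1.72 and the other 8 chosen genes between -0.39 and 0.41, and list medians lie between -0.06 and 0.17.

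Genes that store latent TGF-beta in the matrix or release it went both ways. Of 16 tested, 7 rose and 3 fell, with a median of 0.17. The LTBP genes, whose proteins, LTBP2 apart, tether the latent complex, were split: Ltbp4 rose from 95.5 ± 7.75 to 137 ± 10.2 CPM (0.52, edgeR adjusted p = 5.32e-05) and Ltbp2 from 2.21 ± 0.400 to 5.25 ± 0.957 CPM (1.25), whereas Ltbp3 fell from 181 ± 11.4 to 133 ± 7.17 CPM (-0.45, edgeR adjusted p = 3.61e-05) and Ltbp1 from 347 ± 12.8 to 305 ± 6.33 CPM (-0.18). In all 4 the groups did not overlap, which held for 23.8% of all tested genes. In the whole list of 20, co-culture libraries were all above for 6 genes and all below for 3. Among the listed proteases, Mmp9 rose from 89.3 ± 8.74 to 118 ± 1.54 CPM (0.40, edgeR adjusted p = 0.000207). Of the plasminogen activators, the urokinase gene Plau rose from 22.2 ± 2.91 to 31.3 ± 2.01 CPM (0.50). Plat, the tissue plasminogen activator, fell by 0.19 on the log2 scale. Plg, the gene of plasminogen itself, had 0 counts in both groups. Mmp14 (0.14) passed too, though its call was lost in 6 of 10 fits without 1 library (edgeR adjusted p up to 0.0993). Fbn1, a microfibril protein that anchors LTBPs, rose from 1.54 to 2.96 CPM. Furin, which cuts the propeptide, was at 0.03 (edgeR adjusted p = 0.686), and Itgb5 at -0.08. The integrin subunits best known for activating TGF-beta, Itgb6 and Itgb8, had 15 and 4 summed counts in untreated and 13 and 1 in co-cultured cells, and could not be tested.

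Of 10 co-receptor genes, 2 were lower and none higher in the edgeR fit, against 16.1% lower and 17.4% higher over all tested genes. At an unadjusted p under 0.05, 2 (Dab2 and Tgfbrap1) were higher, and DESeq2 and both limma fits called none higher after adjustment. Bambi, a pseudoreceptor that blocks TGF-beta signalling, fell from 4.21 ± 0.360 to 3.08 ± 0.358 CPM (-0.44, edgeR adjusted p = 0.0154). Vasn, a secreted TGF-beta trap, fell from 108 ± 7.86 to 95.8 ± 3.10 CPM (-0.17, edgeR adjusted p = 0.0238), a call lost without untreated replicate 4 or co-culture replicate 5, at an adjusted p of 0.0593 and 0.0522. Tgfbr3, the co-receptor betaglycan, was at 114 and 111 CPM (-0.05, edgeR adjusted p = 0.571). Eng, the endothelial co-receptor, was at 4.70 and 4.85 CPM.

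Of 16 repressors, ubiquitin ligases and phosphatases of Smad signalling, 2 rose and 2 fell. Nedd4l, a ligase that marks activated Smads for degradation, fell from 144 ± 2.94 to 124 ± 3.89 CPM (-0.22, edgeR adjusted p = 0.000870). Ski, the relative of Skil, went from 146 ± 5.10 to 161 ± 7.20 CPM (0.14, edgeR adjusted p = 0.0295), and Usp4, a deubiquitinase of the type I receptor, rose by 0.16. Ldlrad4, a membrane inhibitor of Smad activation, was at -0.35. The calls of Ski and Ldlrad4 were lost in 6 of 10 fits without 1 library (edgeR adjusted p up to 0.0907 and 0.0764) and that of Usp4 in 7 (up to 0.114). Smurf1 (0.09) and Smurf2 (0.20), ligases that act with Smad7, did not pass.

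TGF-beta target genes were called in both directions. Of 29 tested, 11 rose and 4 fell, with a median of 0.03, so 51.7% were called against 33.5% of all tested genes. Klf10, an early TGF-beta response factor, rose from 65.5 ± 2.88 to 89.5 ± 3.71 CPM (0.45, edgeR adjusted p = 1.41e-05). Snai1, the mesenchymal transcription factor, rose from 20.4 ± 1.95 to 25.6 ± 2.44 CPM (0.33). Col4a1, a basement membrane collagen, rose from 870 ± 42.7 to 1090.4 ± 28.9 CPM. These 3, named because they were called, had groups that did not overlap, which held for 23.8% of all tested genes. In the whole list of 34, co-culture libraries were all above for 8 genes and all below for 3.

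Other targets fell or did not pass. Col3a1, a fibrillar collagen, fell from 2249 ± 57.5 to 1990.0 ± 30.1 CPM (-0.18, edgeR adjusted p = 0.00289). Timp1, an inhibitor of metalloproteinases, fell from 151 ± 7.64 to 121 ± 10.6 CPM (-0.31), and Hmga2, a chromatin protein, by 0.30 on the log2 scale. Bambi, named above, is the remaining one that fell. Tgfbi, which takes its name from its induction by TGF-beta, was at 72.5 and 73.1 CPM (0.01, edgeR adjusted p = 0.883). Cdkn1a (-0.02), Junb (-0.03), Id1 (0.03) and Id3 (-0.02) did not pass either. Pmepa1, a feedback target, had 23 and 9 summed counts, and the smooth muscle genes Acta2 and Tagln stayed below 1 CPM. Ctgf, a matrix signalling protein, rose by 0.41 and Fn1, fibronectin, by 0.17, but each lost its call in 7 of 10 fits without 1 library (edgeR adjusted p up to 0.0876 and 0.0981). Myc rose from 11.4 to 14.0 CPM (0.29).

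The largest rises in the target list began near 0. Col1a2, a chain of type I collagen, rose from 0.540 ± 0.155 to 3.27 ± 0.387 CPM (2.59, edgeR adjusted p = 9.17e-07), while Col1a1, the other chain, was at 38.5 and 43.2 CPM (0.17, edgeR adjusted p = 0.142). Lox, the collagen crosslinking enzyme, rose from 8 to 81 summed counts (3.27, edgeR adjusted p = 0.000155). Without genes under 1 CPM in untreated cells, 13 of the target genes were called in place of 15.

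Among activin and BMP genes, 2 of 14 tested rose and 2 fell. Bmp1, a procollagen protease that also cuts LTBP1, rose from 216 ± 11.7 to 259 ± 9.97 CPM (0.27, edgeR adjusted p = 0.000789). Acvr1b, an activin receptor kinase that signals through Smad2 and Smad3, fell from 35.7 ± 3.04 to 30.2 ± 0.906 CPM (-0.24, edgeR adjusted p = 0.0154). Fstl3, an activin trap, was at 0.29 (edgeR adjusted p = 0.0474) and lost its call in 10 of 10 fits without 1 library (adjusted p up to 0.126). Bmp7 was at -0.53 and lost its call in 7 (up to 0.0822). Inhba, which encodes activin A, had 27 and 48 summed counts and could not be tested.

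Among the marker lists of other cells, only the macrophage or monocyte list had summed levels that did not overlap between the groups. Of 12 macrophage or monocyte markers, 7 could be tested and 5 rose, and the summed level of the list was 58.4 to 65.3 CPM in untreated and 94.4 to 111 CPM in co-culture libraries. Lyz2, a macrophage lysozyme, rose by 4.27 and Adgre1 by 4.47 on the log2 scale, and Csf1r by 1.76. Tyrobp had 0 counts in untreated and 84 in co-cultured cells, at least 29.3-fold higher over the group. C1qa and C1qb were at 0 in untreated cells and had 14 and 20 counts after co-culture. Macrophages and platelets are known sources of thrombospondin-1 and TGF-beta. Thbs1 differed by 52.4 CPM between group means, and Lyz2 went from 0.931 to 18.2 CPM. Of 7 platelet or megakaryocyte markers, 4 were tested and 2 rose, Pf4 from 1.76 ± 0.150 to 3.61 ± 0.726 CPM and Ppbp from 0.585 to 1.33 CPM. The other 2 tested did not pass, the lower of them at a log2 fold change of -0.42. Gp9 was near 0, and the list summed to 14.1 to 17.7 and 15.3 to 19.4 CPM. The part of such cells in the values of Thbs1, Cd36, Itgb1, Col1a2, Lox and Ltbp2 was not tested.

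Fibroblast markers, 7 in all, summed to 43.0 to 53.2 CPM in untreated and 41.6 to 45.1 CPM in co-culture libraries. Pdgfrb fell from 26.1 ± 3.61 to 15.8 ± 0.991 CPM and Col6a3 rose by 0.57 on the log2 scale, while Lum, Thy1 and Fap were below 1 CPM. The 6 endothelial markers summed to 7.08 to 9.60 and 8.84 to 11.4 CPM. Pecam1 was at 1.85 and 2.19 CPM (edgeR adjusted p = 0.469), Vwf rose by 0.74 and Emcn had 0 counts. All 9 T cell markers averaged under 1 CPM in either group, and 4 of them had 0 counts throughout.

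**Figure D4:**
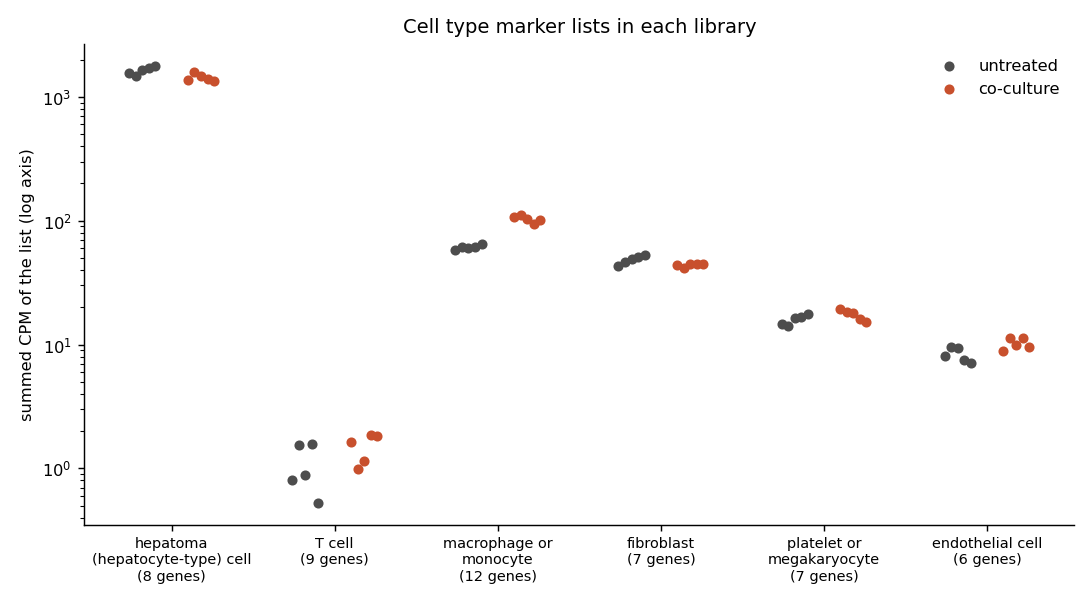
Summed CPM of 6 cell type marker lists in each library (log axis; each point is 1 library, number of genes in parentheses). The macrophage or monocyte list is higher in all co-culture libraries, at 94.4 to 111 against 58.4 to 65.3 CPM, and the T cell list stays at 0.527 to 1.85 CPM.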

How the data were processed

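The deposited table gives gene counts and FPKM for 10 libraries. Per the submitters' processing notes, HISAT2 2.1.0, Bowtie2 2.2.5, RSEM 1.2.8 and build mm10 were used, with no role stated; annotation and strand setting: not given in the sources used here. As deposited, the counts are whole numbers and not normalized. The FPKM deposited by the authors matched the counts over 1 fixed length per gene within 0.00104% across the 9379 genes that reached 100 counts in all libraries, so they carry no independent information. All value columns were used. Symbols on several identifiers (59 symbols) were matched through GENCODE M21 names. Positions are those of the deposited table.

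Counts were tested with edgeR 4.0.16 in R 4.3.3: a filterByExpr filter on low counts, scaling by TMM, and the quasi-likelihood F test (two-sided), with Benjamini-Hochberg adjustment over 12666 genes and a threshold of 0.05. The SE is the size of the log2 fold change over the root of its F value. The fit was also run on simulated counts, with means and dispersions taken from these libraries. Totals of 12922263 to 17100662 counts set a floor of 3 counts, 0.0388 CPM over the untreated and 0.0405 CPM over the co-culture libraries, for counting error only. No 2 libraries of a group agreed within sampling noise (chi-square per degree of freedom 7.03 to 16.0 over 20 pairs). Alternatives were RLE and upper quartile scaling, DESeq2 1.42.0, other low-count filters, limma 3.58.1 on log2(FPKM + 1) and log2(FPKM + 0.1), a replicate block and leaving out each library.

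The 9 genes and the gene lists were chosen with earlier results of these data known. Named genes were the 9, up to 5 called genes per direction with the smallest p in each list, the 5 genes most like Thbs1 and 10 markers. A further 7 called genes of the pathway lists, and the genes given as not passing or not tested, were named after their values were seen. So were the marker genes beyond those 10, among them Krt8, Ppbp, Col6a3 and Vwf. No set test was run. A few listed genes are counted in their lists but not reported here by name.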

Additional observations from a re-analysis of the deposited data

Results flagged for a closer look

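In groups of 5 libraries, a library far from the other 4 was marked by the gap to its nearest neighbour as a share of the group's range (above 0.71). Of 123 groups examined, 9 were marked, and chance marks about 1 in 20. Among the 9 chosen genes, Smad7 had 2: untreated replicate 1 was low at 11.3 CPM, against 14.3 to 15.6 CPM in the other libraries, and co-culture replicate 4 was low at 10.6 CPM, against 15.7 to 17.0 CPM. Leaving out co-culture replicate 4 gave Smad7 a log2 fold change of 0.20; leaving out untreated replicate 1 gave 0.02. No library of Thbs1 was marked.

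Co-culture replicate 2 was the highest for 5 genes: Snai1 at 29.8 CPM (others 23.7 to 25.4), Vasn at 101 CPM (others 93.6 to 95.5), Fstl3 at 8.65 CPM (others 6.70 to 7.21), Pf4 at 4.85 CPM (others 2.91 to 3.45) and Alb at 0.245 CPM (others 0), the last resting on 4 counts. Col1a2 was lowest in co-culture replicate 5, at 2.59 CPM against 3.36 to 3.53 CPM. Adamts1 was lowest in untreated replicate 5, at 33.4 CPM against 36.4 to 37.4 CPM.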

How the results depend on the processing

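The Thbs1 difference kept its direction in every alternative, from 1.67 to 1.79 without 1 library. It was 1.51 with limma on log2(FPKM + 1), where the pseudocount shrinks low values, and Tgfb2 was then 0.060 in place of 0.41. With limma on log2(FPKM + 1) and on log2(FPKM + 0.1), 1 of the 9 genes was past the threshold in place of 3; without 1 library the number was 2 to 4, with the replicate block 2 and with upper quartile scaling 4. Over all genes, 3662 to 4207 were called without 1 library and 3387 to 4382 in the other settings, against 4248. Limma on log2(FPKM + 1) split its calls 2614 higher to 1712 lower, against 2204 to 2044. For the list counts that follow, the cause of a change was not tested. Other Smads gave 2 in place of 1 with DESeq2, RLE and upper quartile scaling, a mean of at least 1 CPM, and both limma fits (1 to 2 without 1 library, 2 without co-culture replicate 2 or untreated replicate 2 or 5). Smad repressors gave 2 in place of 4 without a low-count filter and 1 with the replicate block (1 to 5 without 1 library, 1 without untreated replicate 1). Activin and BMP genes gave 2 in place of 4 with DESeq2, without a low-count filter and with the replicate block (2 to 3 without 1 library). Co-receptors gave 0 in place of 2 with the replicate block (edgeR adjusted p = 0.0544 for Bambi and 0.0728 for Vasn) and 1 to 3 without 1 library (1 without co-culture replicate 5 or untreated replicate 4). In that block fit, without adjustment for many genes, 3 co-receptor genes had a p under 0.05. Without 1 library, thrombospondin relatives gave 8 to 9, latent TGF-beta genes 9 to 11 and target genes 12 to 16; in the other settings they gave 6 to 9, 9 to 10 and 12 to 15. The 6 came with both filters at 1 CPM, under which Cd36 and Itgb1 are not tested. The replicate numbers showed no pairing (correlation of same-numbered libraries' deviations -0.0986 to 0.0507), and 3387 genes were called with the block; 1 of 5 libraries correlated best with its own number. Of 52 other tested genes, named by rule or among the further 7, 10 lost their call somewhere, and none reversed. Other genes named in the text were not followed in this way. Testing only genes of at least 1 CPM in untreated cells was added after seeing the data. Genes with few counts, such as Tgfb2, limit what differences could be seen.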
